A study of Mus musculus with 2 samples.

Results

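Blood endothelial nuclei are the nuclei of the cells that line arteries, capillaries and veins, here those of the mouse colon. They were selected on their own UMI counts (a UMI is a molecular tag that marks 1 captured transcript). A nucleus was taken when it held at least 3 UMIs, from at least 2 genes, over Pecam1, Cdh5, Flt1, Kdr, Vwf, Emcn, Ptprb, Cyyr1 and Plvap. It also had to hold at most 1 UMI over the lymphatic genes Mmrn1, Reln, Flt4, Ccl21a and Prox1, and less than 0.5% of its UMIs on the goblet cell mucin Muc2. The rule found 283 nuclei among 21034 kept nuclei, 88 of 8888 in the wild-type library and 195 of 12146 in the knockout library.

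The study compared colon nuclei of male C57BL/6 Pink1 knockout mice, 15 weeks old, with those of wild-type littermates of the same age and sex. PINK1, a protein kinase of mitochondria, gathers on damaged ones and starts their clearance. Each genotype was 1 library, made from sorted nuclei of 3 mice that were pooled before loading, with 3' tags counted per gene. The wild-type library carries the label batch 1 and the knockout library batch 2, so genotype, library and batch cannot be told apart. The labels name no Cre driver or transgene, and do not say which part of Pink1 is deleted.

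With 1 library per genotype there was no test between them. Each share is given with an exact Clopper-Pearson interval and each ratio with an exact binomial interval, at 95%, and these cover counting error only, not differences between mice. Levels are summed counts of the nuclei per 1000000 nuclear-encoded counts (CPM), and a gene is called higher or lower where the knockout CPM was at least 1.5-fold above or below the wild-type CPM.

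Blood endothelial cells form a single layer that lets nutrients and white cells pass between blood and tissue. VEGF and angiopoietin receptors keep them alive, Notch signalling marks arteries, the factor NR2F2 marks veins, and adherens and tight junctions seal the layer. Capillary endothelium takes up fatty acids, and blood flow itself acts on endothelial genes through the factors KLF2 and KLF4. In the gut, capillaries near the epithelium have windows closed by a diaphragm built of PLVAP.

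Pink1 itself was close to the limit of detection. In blood endothelial nuclei it had 3 counts (26.1 CPM) in the wild-type library and 2 counts (7.89 CPM) in the knockout library, a ratio of 0.303 (0.0253 to 2.64). In all other kept nuclei it had 185 and 139 counts, a ratio of 0.577 (0.459 to 0.722). A 3' tag that lies outside the deleted part of the gene would still be counted, so these values do not check the label.

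Blood endothelial nuclei held a median of 1032 UMIs from 685 genes in the wild-type library and 1014 UMIs from 670 genes in the knockout library, below the medians of 1668.5 and 1630 UMIs of other nuclei. Their nuclear-encoded counts summed to 115094 and 253343, so that 3 counts, the limit that a count of 0 allows, correspond to 26.1 and 11.8 CPM. Over both deposited tables, 28 barcodes occurred in both libraries, and none of the shared barcodes was a blood endothelial nucleus in both. Scrublet, which scores doublets, placed 15 of 88 and 36 of 195 (18.5%) of these nuclei among its highest scores, against 7.11% and 9.72% of all kept nuclei.

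The genes of the rule describe the set and are no finding. Pecam1, which encodes the junction protein CD31, had 198 counts in 72 of 88 wild-type nuclei and 342 counts in 151 of 195 knockout nuclei. The receptor tyrosine phosphatase gene Ptprb was found in 66 and 155 nuclei, the VEGF receptor gene Flt1 in 58 and 140, Plvap in 42 and 110, and Cyyr1 in 45 and 101. Vwf, which encodes von Willebrand factor, was found in 28 and 72 nuclei, and the sialomucin gene Emcn in 31 and 53. The median nucleus held 8.5 rule UMIs in the wild-type and 8 in the knockout library. Just inside the threshold, with exactly 3 rule UMIs, lay 3 and 11 nuclei, and just outside it, with 2 UMIs from 2 genes, 4 and 8. The 3 and 11 nuclei just inside held 3.67 and 9.73 UMIs per nucleus over 36 other endothelial genes, and the 4 and 8 just outside held 8.75 and 4.63. Before the lymphatic and Muc2 limits, 138 and 285 nuclei met the endothelial part of the rule. The lymphatic limit alone left out 45 and 73 of them, the Muc2 limit alone 4 and 11, and both together 1 and 6.

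The label held up against endothelial genes that the rule did not use. All 36 of these genes had a higher CPM in blood endothelial nuclei than in all other kept nuclei, lymphatic endothelium included, in both libraries. Their CPM summed to 9957 for the wild type and to 10827 for the knockout, against 552 and 514 CPM in other nuclei. At least 3 UMIs of these genes were present in 86 of 88 and 192 of 195 nuclei. Egfl7, which encodes a matrix protein secreted by endothelium, had 964 and 1449 CPM, against 5.91 and 8.84 CPM in other nuclei. Sox17, a transcription factor gene of arterial endothelium, had 200 and 241 CPM, against 0.298 and 0.183 CPM. The receptor gene Tie1 had 209 and 221 CPM, against 3.16 and 4.17 CPM. Mecom stood apart from the list because other colon nuclei express it too, at 377 and 311 CPM against 591 and 620 CPM here.

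**Figure D1:**
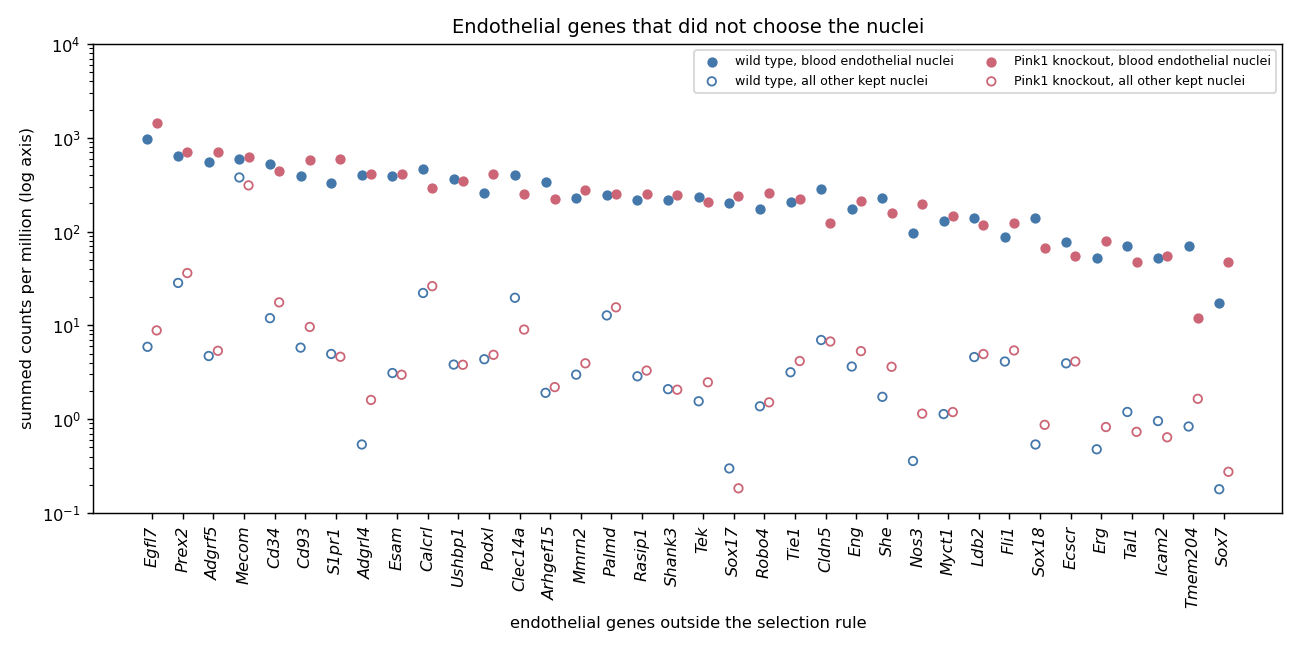
Summed CPM (log axis) of 36 endothelial genes outside the selection rule, in blood endothelial nuclei (filled) and all other kept nuclei (open) of each library. Every filled point lies above the open point of its gene and library, with Mecom the closest pair at 591 against 377 CPM in the wild-type library.

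Of the marker lists of other cell types, the epithelial list had the highest summed level in these nuclei. The 20 epithelial markers, of which Muc2 was limited by the rule, summed to 3745 CPM (wild type) and 5147 CPM (knockout), against 13058 and 14906 CPM in other nuclei, and 42 of 88 and 88 of 195 nuclei held at least 3 such UMIs. Fibroblast markers summed to 269 and 237 CPM (526 and 728 in other nuclei), smooth muscle markers to 86.9 and 178 CPM (265 and 435), and pericyte markers to 43.4 and 35.5 CPM (54.2 and 76.7). Of the pericyte markers 6 of 9 were at 0 in the wild-type and 4 of 9 in the knockout library, with Kcnj8, Higd1b, Cox4i2 and Trpc6 at 0 in both. Macrophage markers summed to 8.69 and 43.4 CPM (69.6 and 107 in other nuclei), lymphocyte markers to 34.8 and 35.5 CPM (127 and 124), and both Csf1r and Cd3e were at 0 in both libraries. Markers of interstitial cells of Cajal summed to 60.8 and 103 CPM (286 and 280 in other nuclei). Plasma cell markers were above the level of other nuclei in both libraries, at 226 and 245 CPM against 137 and 139 CPM, with up to 16 and 33 of their 26 and 62 counts in 1 nucleus. Glial and neuronal markers summed to 60.8 and 78.9 CPM (73.7 and 72.9 in other nuclei), and platelet markers had 0 and 3 counts (11.8 CPM in the knockout library, against 8.34 in other nuclei). Of the lymphatic genes outside the rule, Pdpn was at 0 in both libraries and Lyve1 had 3 counts in each. The part of these genes in the results was not tested, other than by leaving nuclei out as given for the immediate early genes.

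Blood endothelial nuclei made up a larger share of the knockout library. The share was 0.990% (0.795 to 1.22) of kept wild-type nuclei and 1.61% (1.39 to 1.85) of kept knockout nuclei, a ratio of 1.62 (1.25 to 2.11). Lymphatic endothelial nuclei, taken by at least 3 UMIs over the 5 lymphatic genes from at least 2 of them, numbered 86 (0.968%) and 157 (1.29%), a ratio of 1.34 (1.02 to 1.76). The number of lymphatic per blood endothelial nuclei had a ratio of 0.824 (0.629 to 1.08) between the libraries, an interval that holds 1. Leaving out each of the 9 rule genes in turn kept the ratio of shares between 1.56 and 1.71. These are shares of sorted nuclei that passed a UMI minimum.

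Beyond the rule, the genes with the highest level over other nuclei fell into those shared with lymphatic endothelium and those nearly absent there. The fatty acid binding protein gene Fabp4 had 73 and 360 counts in blood endothelial nuclei and 0 and 6 in lymphatic nuclei. Ly6c1, a surface protein gene of vascular endothelium, had 57 and 166 counts here, and 0 and 1 there. Sox17 and the semaphorin gene Sema3g had 23 counts each in the wild-type and 61 and 52 in the knockout library, and none in lymphatic nuclei of either library. The adhesion gene Esam (45 and 103 counts) and the receptor gene Cd93 (45 and 147 counts) had 1 and 2 counts each in lymphatic nuclei. The adhesion receptor genes Adgrl4 (46 and 104 counts) and Adgrf5 (63 and 179 counts) and the exchange factor gene Fgd5 (32 and 105 counts) were among the 20 highest too. By contrast Arap3 had 460 and 407 CPM in blood and 472 and 448 CPM in lymphatic endothelial nuclei, and Mmrn2 226 and 280 against 249 and 215 CPM. The difference between the 2 endothelial classes was described and not tested, since the rule itself separates them.

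The interferon-inducible GTPase genes Iigp1 and Gbp4 were the most abundant measured members of the interferon and MHC class I list, and Gbp4 was also among the 20 genes highest over other nuclei. Iigp1 had 115 counts (999 CPM) in the wild-type and 248 counts (979 CPM) in the knockout library, in 36 of 88 and 78 of 195 nuclei. In other kept nuclei it had 11.3 and 62.9 CPM, and 1.06% and 2.32% of them held a UMI of it. Gbp4 had 817 and 1003 CPM, with a UMI in 40 and 94 nuclei, against 6.80 and 14.4 CPM in other nuclei. Lymphatic endothelial nuclei had 116 and 582 CPM of Iigp1 and 53.4 and 300 CPM of Gbp4. Between the libraries Iigp1 had a ratio of 0.980 (0.782 to 1.23) in blood endothelial, 5.03 (2.83 to 9.71) in lymphatic endothelial and 5.57 (4.78 to 6.52) in other nuclei. Gbp4 had ratios of 1.23 (0.965 to 1.57), 5.62 (2.44 to 15.9) and 2.11 (1.70 to 2.64) in the same order. In blood endothelial nuclei these genes were thus at like levels in both libraries, while in the other classes the wild-type level was the lower one. The difference between classes was not tested.

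Vessel segments could be read in part from single nuclei. Segment genes of arteries (9 genes, such as the gap junction genes Gja4 and Gja5, and Sox17), veins (10 genes, such as Nr2f2 and the chemokine decoy receptor gene Ackr1) and capillaries (10 genes, such as Fabp4 and the fatty acid transporter gene Cd36) were taken from longer lists, trimmed after first counts were seen. An arterial UMI was present in 37 of 88 nuclei (42.0%) of the wild type and 99 of 195 (50.8%) of the knockout library, and a venous UMI in 44 of 88 and 92 of 195 (47.2%). A capillary UMI was present in 57 wild-type nuclei (64.8%, 53.9 to 74.7) and 157 knockout nuclei (80.5%, 74.2 to 85.8). Thinned to 500 UMIs per nucleus, the capillary shares were 37.5% (27.4 to 48.5) and 60.5% (53.3 to 67.4), and in other nuclei 2.30% and 2.58%. The thinned arterial shares were 29.5% and 34.4%, and the venous shares 31.8% and 31.3%, against 7.28% and 7.20%, and 8.94% and 6.74%, in other nuclei. Arterial and venous UMIs met in 15 of 88 and 38 of 195 (19.5%) nuclei, so a UMI of a segment list marks a nucleus and does not name its vessel.

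Nuclei with an arterial and no venous UMI (22 and 61) were set beside those with a venous and no arterial UMI (29 and 54). The genes compared are in neither of the trimmed lists, though some, such as Fbln5, are in the longer arterial and Notch list. These genes were chosen after their values were seen. Genes of the selection rule were left out. Iigp1 was lower in the arterial-marked nuclei, with 14 against 74 counts in the wild-type (ratio 0.288, 0.150 to 0.514) and 43 against 92 in the knockout library (0.374, 0.254 to 0.543). Ace, which encodes angiotensin-converting enzyme, was higher in the arterial-marked nuclei, with 16 against 7 counts (3.48, 1.35 to 9.99) and 36 against 11 counts (2.62, 1.30 to 5.71). Iigp1 and Ace were picked because both libraries showed the same direction, so this is a description of them and no support for a segment pattern. Timp3, which encodes an inhibitor of matrix proteases, had 158 against 30 counts in the knockout library (4.22, 2.84 to 6.46), and 17 against 20 in the wild-type library (1.29, 0.636 to 2.60). Fbln5, an elastic fibre gene, had 20 against 1 counts in the knockout library (interval of the ratio 2.56 to 664) and 2 against 2 in the wild-type library. Gbp4 had a ratio of 0.413 (0.287 to 0.586) in the knockout and 0.822 (0.452 to 1.45) in the wild-type library. Other genes had an interval that left out 1 in the wild-type library and held it in the knockout library. Nrp1 had ratios of 3.55 (1.56 to 8.80) and 1.20 (0.660 to 2.23), and Klf2 0.394 (0.145 to 0.928) and 1.00 (0.744 to 1.35).

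**Figure D2:**
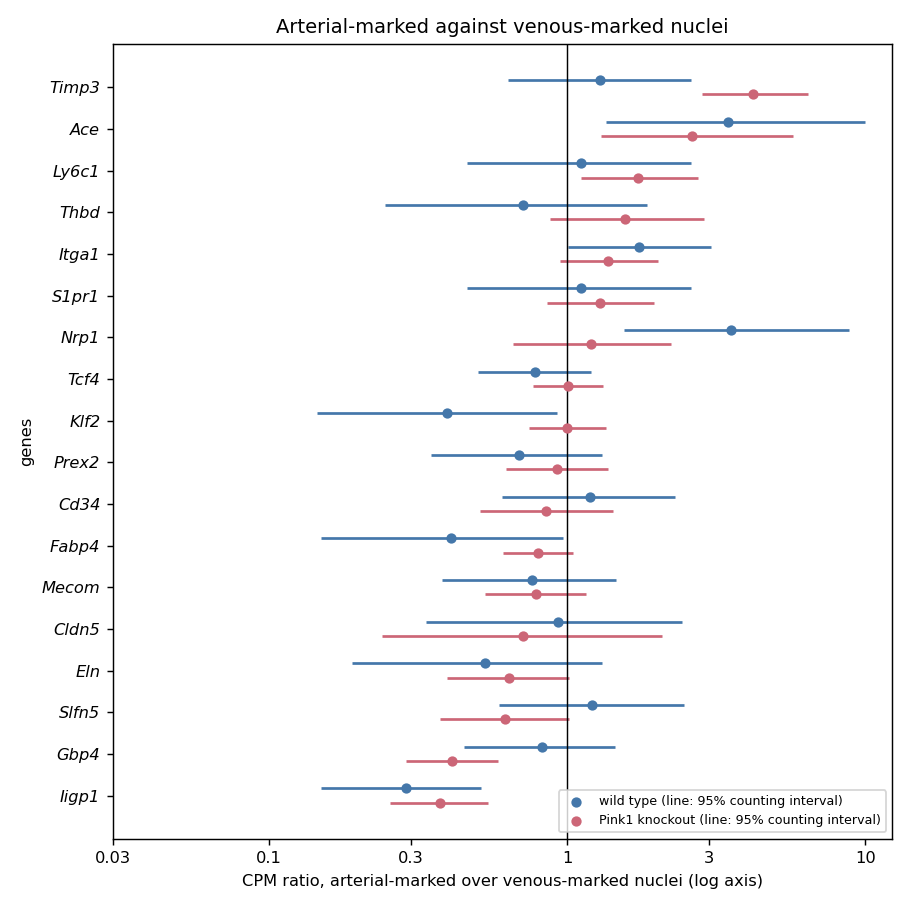
CPM ratio of arterial-marked over venous-marked blood endothelial nuclei (log axis) for 18 genes outside the selection rule, in the wild-type and the knockout library, with 95% counting intervals. Genes were chosen after values were seen, and Mecom and Eln are in the longer arterial and Notch list. Iigp1 (0.288 and 0.374) lies left of 1 and Ace (3.48 and 2.62) right of 1 in both libraries, while Timp3 (1.29 and 4.22) and Nrp1 (3.55 and 1.20) have an interval that leaves out 1 in 1 library each.

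Immediate early genes respond to a stimulus before any new protein is made, and most of those measured here were higher in the knockout library. Of 42 listed genes 24 were measured (at least 20 counts over both libraries), and 18 of the 24 were at least 1.5-fold higher and 0 lower, while 19.1% of all 3944 measured genes were higher and 12.1% lower. The median log2 ratio of the list was 1.38, against 0.01 over all measured genes. Genes such as Nr4a1, Fos, Dusp1 and Errfi1 passed the count minimum through the knockout library. The count of measured members, the count of higher members and the list median are thus no support by themselves.

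The promoters of 3 immediate early genes that lead this list, and of Apold1, an endothelial gene described beside them, are shown because many stimulus-responsive genes carry the cAMP response element TGACGTCA. Each is the 300-base RefSeq window of GRCm38.p6 around the transcription start, 5′ to 3′ on the gene's strand, with capitals for the CRE core TGACG or its reverse complement CGTCA. Nr4a1 lies at chr15:101266596-101266895 on the plus strand, Dusp1 at chr17:26508423-26508722 on the minus strand, Fos at chr12:85473640-85473939 on the plus strand, and Apold1 at chr6:134981751-134982050 on the plus strand.
Nr4a1: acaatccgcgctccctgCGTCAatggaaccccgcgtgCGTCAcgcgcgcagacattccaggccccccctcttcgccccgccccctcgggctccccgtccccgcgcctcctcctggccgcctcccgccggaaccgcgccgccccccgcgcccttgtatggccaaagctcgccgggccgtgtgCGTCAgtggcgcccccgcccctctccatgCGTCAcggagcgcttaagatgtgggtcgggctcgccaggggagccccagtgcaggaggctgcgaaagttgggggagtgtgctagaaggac
Dusp1: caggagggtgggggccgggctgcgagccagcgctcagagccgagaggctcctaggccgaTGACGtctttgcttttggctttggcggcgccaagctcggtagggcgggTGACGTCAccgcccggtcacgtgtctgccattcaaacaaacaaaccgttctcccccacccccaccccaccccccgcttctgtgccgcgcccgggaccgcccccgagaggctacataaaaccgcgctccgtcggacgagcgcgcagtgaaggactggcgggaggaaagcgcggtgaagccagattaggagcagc
Fos: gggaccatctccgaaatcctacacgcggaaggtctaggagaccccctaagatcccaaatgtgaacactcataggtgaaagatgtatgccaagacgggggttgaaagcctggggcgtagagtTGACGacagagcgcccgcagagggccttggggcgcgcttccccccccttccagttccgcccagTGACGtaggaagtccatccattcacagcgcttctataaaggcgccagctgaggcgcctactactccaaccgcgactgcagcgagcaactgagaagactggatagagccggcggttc
Apold1: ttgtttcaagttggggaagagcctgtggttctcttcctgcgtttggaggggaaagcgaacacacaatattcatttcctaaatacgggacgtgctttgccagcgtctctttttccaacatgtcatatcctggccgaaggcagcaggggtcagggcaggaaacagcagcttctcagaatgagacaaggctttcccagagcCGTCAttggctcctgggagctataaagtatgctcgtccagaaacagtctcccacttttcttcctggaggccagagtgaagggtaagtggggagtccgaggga

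The Nr4a1 window held the core 4 times and the Fos window 2 times, and the Apold1 window once. The Dusp1 window held a whole TGACGTCA, in which both strands read as a core, and 1 further core. Over both strands, the core was found in 9 of 19 promoters of measured immediate early genes (18 of 24 genes matched) and in 8 of 14 promoters of those at least 1.5-fold higher. It was found in 32.7% of 4166 promoters of all measured genes and in 20.8% of 32841 promoters in all. The whole TGACGTCA, which contains the core, was found in 3 of the 19 and in 3.17% of the promoters of measured genes. The serum response element was found in 1 of the 19 against 1.56% of the promoters of measured genes, and the E-box CACGTG in 3 of the 19 against 9.15% of the promoters of measured genes. The ETS motifs CAGGAAGT and ACCGGAAGT were found in none of the 19, in 1 of 16 promoters of the top endothelial genes (11 of 20 genes matched, the match being Egfl7) and in 5.11% of those of measured genes. A match describes the letters of a window and shows no binding.

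Nuclear receptor and signalling genes of the list were among those with the highest ratios. Nr4a1, which encodes an orphan nuclear receptor, had 1 count in 1 of 88 wild-type nuclei and 89 counts in 48 of 195 knockout nuclei, a ratio of 40.4 (7.07 to 1615). Dusp1, which encodes a phosphatase that switches off MAP kinases, had 8 counts in 8 nuclei and 152 counts in 85 nuclei, a ratio of 8.63 (4.27 to 20.4). Errfi1, an inhibitor of EGF receptor signalling, had 2 and 49 counts (ratio 11.1, 2.92 to 94.5), and 1 nucleus held 24.5% of its knockout counts. Most knockout nuclei still had no Nr4a1 UMI, and with 1 wild-type count the size of the Nr4a1 ratio is loose.

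Most transcription factor genes of the list were higher too. Fos, a subunit of the factor AP-1, had 5 counts in 3 wild-type and 112 counts in 64 knockout nuclei, a ratio of 10.2 (4.23 to 32.0). Jun, Junb and Jund, its partners, had ratios of 2.32 (1.16 to 5.12), 2.01 (1.06 to 4.13) and 2.17 (1.04 to 5.06). Egr1, a zinc finger factor gene, had 13 counts in 6 nuclei, 46.2% of them in 1 nucleus, and 152 counts in 64 nuclei, a ratio of 5.31 (3.01 to 10.2). Its level was 113 and 600 CPM here, against 35.0 and 971 CPM in other nuclei. Fos had 43.4 and 442 CPM here, against 60.7 and 474 CPM in other nuclei. The flow-responsive factor genes Klf2 and Klf4 had the highest CPM of the list in the knockout library. Klf2 had 49 counts (426 CPM) in 27 wild-type nuclei and 347 counts (1370 CPM) in 135 knockout nuclei, a ratio of 3.22 (2.38 to 4.43). Klf4 had 32 counts (278 CPM) and 203 counts (801 CPM), a ratio of 2.88 (1.98 to 4.33). Cebpd and Trib1 had ratios of 3.69 (1.77 to 8.91) and 3.63 (1.10 to 18.9), and Zfp36, whose product speeds mRNA decay, 3.76 (1.72 to 9.78). Within 1.5-fold lay the factor genes Fosl2 and Klf10 and the genes Ier3, Ccn1, Zfp36l1 and Ier5, with ratios from 0.772 to 1.45.

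**Figure D3:**
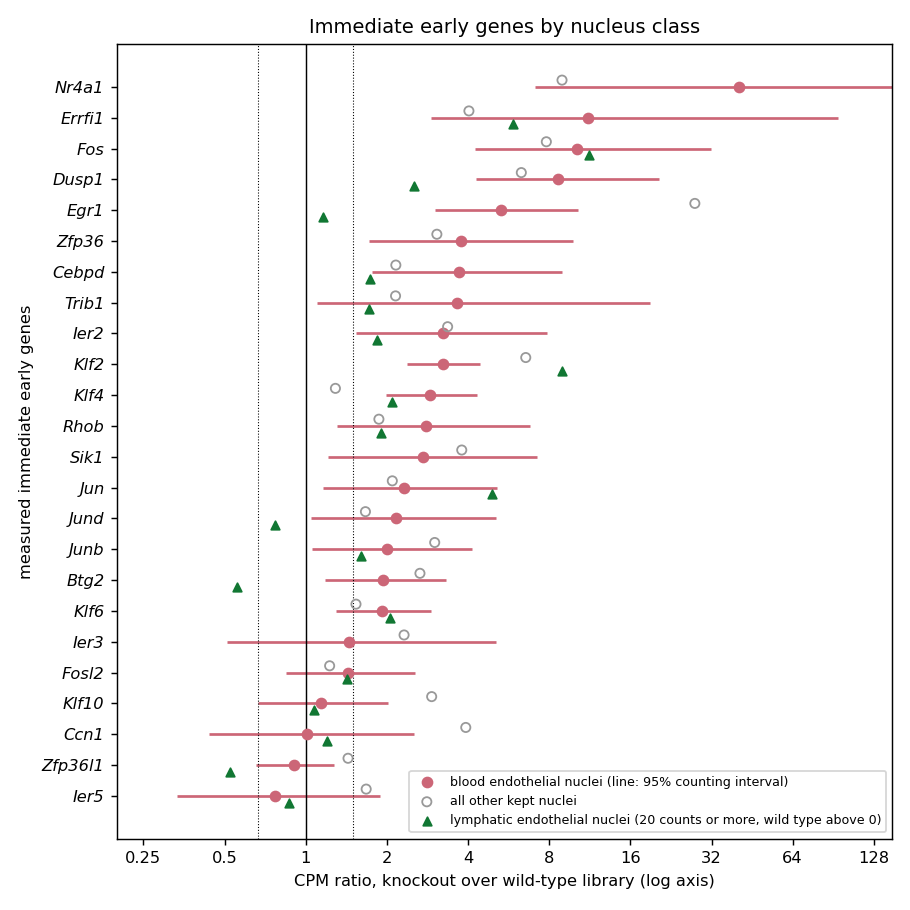
CPM ratios, knockout over wild-type library (log axis), of the 24 measured immediate early genes in blood endothelial nuclei with 95% counting intervals, in all other kept nuclei (open circles) and in lymphatic endothelial nuclei (triangles); dotted lines mark 1.5-fold. The interval of Nr4a1 runs past the axis to 1615, 18 red points lie right of the upper dotted line, and Egr1 has the widest gap between blood endothelial (5.31) and other nuclei (27.7).

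The same list was higher in the other classes of nuclei too. Over the same 24 genes the median log2 ratio was 1.48 in all other kept nuclei, where 21 of the 24 were at least 1.5-fold higher, against 4.74% higher and 1.14% lower over the same 3944 genes in those nuclei. Over the 20 genes with at least 20 counts in lymphatic nuclei the medians were 0.75 there and 1.28 in blood endothelial nuclei. Egr1 had a ratio of 5.31 in blood endothelial, 1.16 (0.742 to 1.85) in lymphatic endothelial and 27.7 (25.6 to 30.2) in other nuclei. Klf2 had 3.22, 8.93 (5.31 to 16.2) and 6.55 (5.63 to 7.66), and Fos 10.2, 11.2 (2.93 to 95.9) and 7.81 (7.32 to 8.34). No difference between classes was tested. Genotype, library and batch cannot be told apart in it.

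The difference in immediate early genes was spread over single nuclei. Immediate early UMIs took a median of 0.235% of a nucleus's UMIs (quartiles 0.122 and 0.456) in the wild-type and 0.755% (0.458 and 1.26) in the knockout library. Nuclei with none of these UMIs numbered 8 of 88 (9.09%, 4.01 to 17.1) and 1 of 195 (0.513%, 0.0130 to 2.82). Thinned to 500 UMIs they numbered 26 (29.5%) and 13 (6.67%), and in other nuclei 42.3% and 14.4%. Epithelial markers also summed higher in the knockout nuclei, 10 of 18 measured ones being at least 1.5-fold higher, against 19.1% of all measured genes. As an alternative, nuclei with over 2% epithelial marker UMIs were left out. Left out too were those with at least 3 UMIs over fibroblast, smooth muscle, pericyte, immune and glial or neuronal markers. Nuclei with fewer epithelial UMIs stayed in, and 83 and 179 nuclei were kept. The immediate early list then had a median log2 ratio of 1.30. With doublet calls removed it was 1.55.

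**Figure D4:**
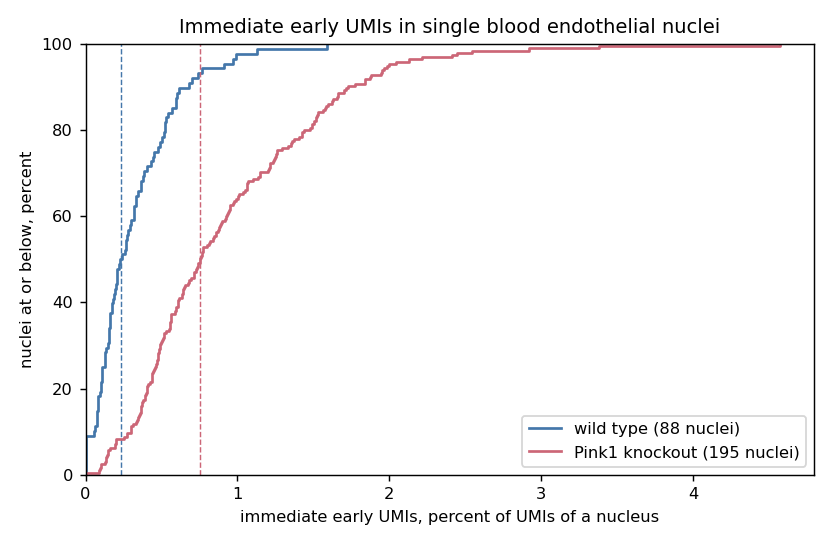
Cumulative share of blood endothelial nuclei (percent) by the percent of their UMIs on immediate early genes, for 88 wild-type and 195 knockout nuclei; dashed lines are the medians, 0.235% and 0.755%. At the quartiles and the median the knockout curve lies to the right of the wild-type curve.

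Several genes outside the list had ratios of like size. Apold1, an early response gene of endothelium, had 13 counts in 10 wild-type nuclei and 218 counts in 98 knockout nuclei, a ratio of 7.62 (4.36 to 14.5), and 4.96 in lymphatic endothelial nuclei. Adamts1, which encodes a secreted protease, had 6 and 122 counts, a ratio of 9.24 (4.12 to 25.7), against 11.3 in other nuclei. Nfkbia, which encodes the inhibitor that holds NF-kB in the cytoplasm, had 4 counts in 4 nuclei and 81 in 60 nuclei, a ratio of 9.20 (3.46 to 34.6), against 1.33 (1.22 to 1.45) in other nuclei and 1.35 (0.781 to 2.44) in lymphatic nuclei. The other measured NF-kB response genes, Nfkbiz, Nfkb1 and Birc3, lay within 1.5-fold. Of the 4 measured genes of that list 1 was higher and 0 lower, against 19.1% and 12.1% of all measured genes. Their median log2 ratio was 0.10.

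Glucocorticoid-responsive genes were split. Of 9 measured genes 5 were higher and 1 lower, against 19.1% and 12.1% of all measured genes. Their median log2 ratio was 0.57. Ddit4, an inhibitor of the growth kinase mTORC1, had 3 and 69 counts, a ratio of 10.4 (3.43 to 51.9), against 2.02 (1.80 to 2.27) in other nuclei. The kinase gene Sgk1 had 16 and 166 counts (ratio 4.71, 2.82 to 8.44), against 5.99 (5.59 to 6.43) in other nuclei. The cell cycle inhibitor gene Cdkn1a had 4 and 46 counts, 5.22, against 1.79 (1.65 to 1.94) in other nuclei. Tsc22d3 had 7 and 48 counts, 3.12 (1.40 to 8.16), against 2.46 (2.19 to 2.77) in other nuclei. Fkbp5 (18 and 37 counts) and the receptor gene Nr3c1 (14 and 34 counts) had ratios of 0.934 and 1.10, and Zbtb16 0.508 (0.250 to 1.04). Klf9, 1 of the 2 most abundant members, had 35 and 100 counts, 1.30 (0.875 to 1.97), against 1.92 (1.83 to 2.00) in other nuclei. Ddit4, Cdkn1a and Tsc22d3 passed the count minimum through the knockout library. So the count of higher members and the list median are no support by themselves. The genes that were higher also respond to other stimuli than glucocorticoids.

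Capillary genes had a median log2 ratio of 1.09 over 7 measured of 12 listed genes, with 4 higher and 0 lower, against shares of 19.1% and 12.1% over all measured genes. Fabp4 had 634 CPM in 34 of 88 wild-type and 1421 CPM in 112 of 195 knockout nuclei, a ratio of 2.24 (1.74 to 2.92). In all other kept nuclei Fabp4 was scarce, with 12 and 195 counts, but its ratio was larger, at 12.5 (6.98 to 24.5). Tmem88 had 4 and 30 counts (ratio 3.41, 1.20 to 13.3), and Rgcc 6 and 30 counts, 2.27 (0.930 to 6.68). Car4 had 6 and 37 counts (ratio 2.80, 1.17 to 8.12), and is also an epithelial gene at 83.3 and 117 CPM in other nuclei. Tmem88, Rgcc and Car4 passed the count minimum through the knockout library. The count of higher members and the list median are therefore no support by themselves. Cd36 (0.909), the water channel gene Aqp1 (0.948) and Cd300lg (1.29) lay within 1.5-fold. By counts Fabp4 carried most of this list, and a larger share of capillary nuclei cannot be told apart from more RNA of these genes per nucleus here.

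Arterial and Notch genes had 6 of 15 measured members higher and 0 lower (19.1% and 12.1% over all measured genes), with a median log2 ratio of 0.25. For 3 measured members the interval lay above 1. Hes1, Fbln5 and Hey1 passed the count minimum through the knockout library. Neither the count of higher members nor the list median is therefore support by itself. The 2 most abundant measured members lay within 1.5-fold. Mecom had 68 and 157 counts, 1.05 (0.784 to 1.42), and Eln 65 and 133 counts, 0.930 (0.686 to 1.27). The Notch target Hes1 had 5 and 36 counts (ratio 3.27, 1.28 to 10.7), and the elastic fibre gene Fbln5 6 and 34 counts, 2.57 (1.07 to 7.50). Hes1 had a lower CPM here (43.4 and 142) than in other nuclei (124 and 207), where its ratio was 1.67 (1.59 to 1.76). The arterial ligand gene Efnb2 had 15 and 62 counts (ratio 1.88, 1.06 to 3.55) and a log2 ratio of -0.10 where a Leiden cluster replaced the rule, and Hey1, another Notch target, 3 and 20 counts, 3.03 (0.898 to 15.9). The receptor genes Notch1 and Notch4 had ratios of 1.55 (0.952 to 2.62) and 1.91 (0.942 to 4.26), and the ligand genes Dll4, Jag1 and Jag2 lay at 0.772, 0.946 and 0.699. Venous genes had a median log2 ratio of 0.04 over 11 measured members, 1 higher and 2 lower. The venous factor gene Nr2f2 had 32 and 101 counts (ratio 1.43, 0.955 to 2.21), and the adhesion receptor gene Adgrg6 32 and 51 counts, 0.724 (0.456 to 1.16).

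VEGF and angiopoietin signalling genes were close to all measured genes, with 1 of 8 measured members higher and 0 lower (19.1% and 12.1% over all measured genes). Their median log2 ratio was 0.07. The co-receptor gene Nrp1 had 49 counts (426 CPM) and 108 counts (426 CPM), a ratio of 1.00 (0.708 to 1.43). The angiopoietin receptor gene Tek had 27 and 53 counts, 0.892 (0.551 to 1.47), and Tie1 24 and 56 counts, 1.06 (0.646 to 1.79). The ligand gene Vegfa had 6 and 25 counts, 1.89 (0.758 to 5.64), at a lower CPM than in other nuclei. Of 17 listed genes 9 were under the count minimum, the ligand genes Angpt1, Angpt2 and Vegfc among them.

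Junction genes had 4 of 21 measured members higher and 2 lower, near the 19.1% and 12.1% of all measured genes, and a median log2 ratio of -0.03. Cldn5, the main tight junction claudin of endothelium, had 33 counts (287 CPM) in 18 of 88 wild-type nuclei and 31 counts (122 CPM) in 21 of 195 knockout nuclei, a ratio of 0.427 (0.253 to 0.719). In lymphatic nuclei Cldn5 had 98 and 118 counts, a ratio of 0.645 (0.489 to 0.852). S1pr1, the receptor for the barrier lipid sphingosine-1-phosphate, had 38 counts (330 CPM) and 149 counts (588 CPM), a ratio of 1.78 (1.24 to 2.62), against 0.719 (0.463 to 1.12) in lymphatic nuclei. The scaffold gene Tjp1 had 18 and 73 counts, 1.84 (1.09 to 3.28). Esam (1.04), Heg1 (0.874), Afdn (0.952) and the catenin genes Ctnnb1 (0.739), Ctnna1 (1.17) and Ctnnd1 (0.977) lay within 1.5-fold. Within this list Cldn5 and S1pr1 thus lay on opposite sides of 1.

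Caveolae and lipid uptake genes had 1 of 11 measured members higher (Fabp4) and 3 lower, against 19.1% and 12.1% over all measured genes. Their median log2 ratio was -0.13. Cavin1, which encodes a coat protein of caveolae, had 33 counts in 26 nuclei and 30 counts in 23 nuclei, a ratio of 0.413 (0.243 to 0.699). Its partner gene Cavin2 had 44 and 141 counts, 1.46 (1.03 to 2.09), and the caveolin gene Cav1 32 and 65 counts, 0.923 (0.596 to 1.46). In other nuclei Cavin1 had a ratio of 0.864 (0.721 to 1.04) and Cavin2 1.63 (1.42 to 1.88). The lipoprotein receptor gene Scarb1 had 33 and 44 counts, 0.606 (0.377 to 0.982), and Ehd4 34 and 48 counts, 0.641 (0.405 to 1.03). The ratios of the coat genes Cavin1 and Cavin2 lay on opposite sides of 1.

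Vascular tone genes had 3 of 11 measured members higher and 2 lower, against 19.1% and 12.1% over all measured genes. Their median log2 ratio was 0.37. Nos3, which encodes endothelial nitric oxide synthase, had 11 counts in 10 nuclei and 50 counts in 42 nuclei, a ratio of 2.06 (1.06 to 4.40). Ece1, which makes active endothelin, had 11 and 58 counts, 2.40 (1.24 to 5.06), and its substrate gene Edn1 26 and 78 counts, 1.36 (0.865 to 2.21). In other nuclei Nos3 had a ratio of 3.20 (1.28 to 9.53) and Ece1 1.10 (1.01 to 1.18). The receptor gene Calcrl had 54 and 73 counts, 0.614 (0.426 to 0.890), and its partner Ramp2 17 and 52 counts, 1.39 (0.791 to 2.56). Gucy1a1, a subunit of the nitric oxide receptor that smooth muscle and pericytes also express, had 37 and 38 counts, 0.467 (0.289 to 0.754). Ace had 39 and 94 counts, 1.09 (0.746 to 1.63).

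Haemostasis genes had 2 of 6 measured members higher and 0 lower, against 19.1% and 12.1% over all measured genes. Their median log2 ratio was 0.36. The matrix glycoprotein gene Thbs1 had 32 and 167 counts (ratio 2.37, 1.62 to 3.58), and Plat, which encodes tissue plasminogen activator, 3 and 23 counts, 3.48 (1.05 to 18.1). The anticoagulant receptor gene Thbd had 40 and 91 counts, 1.03 (0.705 to 1.54). Leukocyte adhesion genes had 2 of 11 higher and 1 lower, with a median log2 ratio of 0.04. Podxl had 30 and 105 counts, 1.59 (1.05 to 2.47), Cd34, a sialomucin gene, 61 and 112 counts, 0.834 (0.605 to 1.16), and Icam1 7 and 27 counts, 1.75 (0.744 to 4.77). Vcam1 had 9 and 11 counts, 0.555 (0.209 to 1.52), and the selectin genes Sele and Selp were under the count minimum.

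TGF-beta and BMP signalling had 3 of 15 measured members higher and 0 lower, against 19.1% and 12.1% over all measured genes. The median log2 ratio was 0.22. Id1, a BMP target, had 25 and 133 counts (ratio 2.42, 1.57 to 3.87), and Id3 22 and 59 counts, 1.22 (0.735 to 2.09). Ltbp4, which stores latent TGF-beta in the matrix, had 27 and 98 counts, 1.65 (1.07 to 2.63). In other nuclei Id1 had a ratio of 2.26 (2.17 to 2.37) and Ltbp4 1.34 (1.21 to 1.49). The receptor genes Bmpr2 (0.760), Acvrl1 (0.909), Eng (1.23) and Tgfbr2 (1.14) lay within 1.5-fold. Basement membrane and adhesion genes had 4 of 20 higher and 1 lower, with a median log2 ratio of 0.08. Timp3 had 74 counts (643 CPM) and 299 counts (1180 CPM), 1.84 (1.42 to 2.40), and the collagen IV genes Col4a1 and Col4a2 lay at 1.31 (0.885 to 1.98) and 0.742 (0.462 to 1.21). The integrin gene Itga1, at 799 and 892 CPM, had a ratio of 1.12 (0.872 to 1.44).

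Endothelial transcription factor genes were at like levels in both libraries, with a median log2 ratio of 0.13. Of 20 measured members 2 were higher and 1 lower, against 19.1% and 12.1% over all measured genes. Tcf4 had 1564 and 1425 CPM, a ratio of 0.911 (0.760 to 1.10), and Nfib 1077 and 1117 CPM, 1.04 (0.837 to 1.29). The ETS factor genes Erg, Fli1 and Ets1 had ratios of 1.51 (0.587 to 4.61), 1.41 (0.673 to 3.22) and 1.05 (0.649 to 1.76). Epas1, which encodes the hypoxia factor HIF-2 alpha, had 41 and 117 counts, 1.30 (0.901 to 1.90). Hypoxia response genes had 0 of 7 measured members called in either direction, with a median log2 ratio of 0.17, and glycolysis genes 1 of 8 higher and 0 lower, with -0.16. The hypoxia gene Ndrg1 had a ratio of 1.08 (0.675 to 1.78). The glycolysis genes Pfkp and Pkm had 0.719 (0.420 to 1.25) and 0.863 (0.490 to 1.57).

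**Figure D5:**
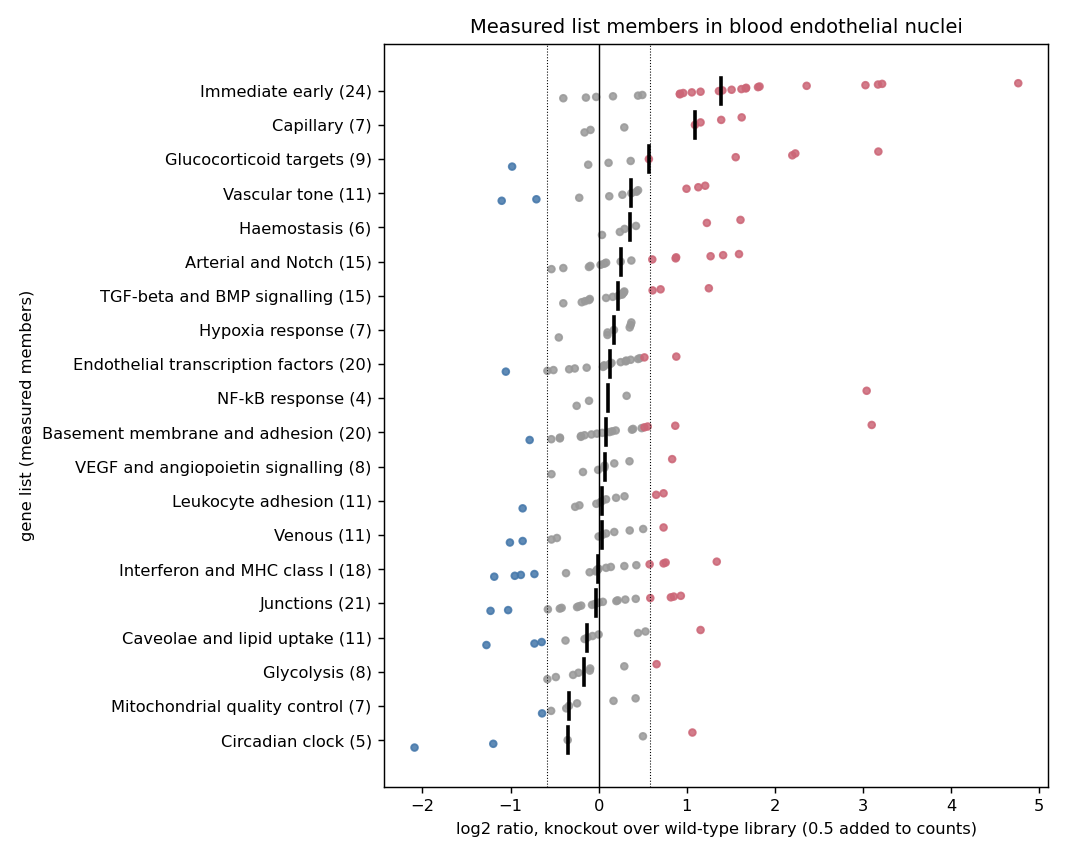
Log2 ratios, knockout over wild-type library, of measured members of 20 gene lists in blood endothelial nuclei; each point is a gene, red and blue points passed 1.5-fold, black bars are list medians and the number in brackets is that of measured members. The immediate early list has the highest median, 1.38, and the circadian clock list the lowest, -0.35.

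Over all measured genes 755 were at least 1.5-fold higher and 479 at least 1.5-fold lower in the knockout library, and with median-of-ratios scaling 925 and 372. The counting interval lay above 1 for 220 measured genes and below 1 for 128, so most of these calls lie within counting error. Interferon and MHC class I genes had 4 of 18 measured members higher and 4 lower, against 19.1% and 12.1% over all measured genes. Their median log2 ratio was -0.01. Rnf213, a ubiquitin ligase gene, had 31 and 30 counts, a ratio of 0.440 (0.257 to 0.751), while B2m had 49 and 146 counts, 1.35 (0.973 to 1.91), and H2-K1 92 and 157 counts, 0.775 (0.596 to 1.01). None of 7 MHC class II genes was measured. Of 5 measured clock genes the output gene Tef had 14 and 7 counts, 0.227 (0.0776 to 0.601), and Nr1d2, a repressor of the clock, 25 and 24 counts, 0.436 (0.238 to 0.796), against 0.383 (0.344 to 0.425) and 0.503 (0.473 to 0.534) in other nuclei. Bhlhe40 had 17 and 80 counts, 2.14 (1.26 to 3.85), and Clock itself 45 and 78 counts, 0.787 (0.539 to 1.16).

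Mitochondrial quality control genes, the pathway of PINK1 itself, were scarcely counted. Of 25 listed genes 7 were measured, 0 higher and 1 lower, against 19.1% and 12.1% over all measured genes. Their median log2 ratio was -0.34. The fission genes Dnm1l and Mff had ratios of 1.36 (0.774 to 2.52) and 0.646 (0.346 to 1.23), the fusion genes Opa1 and Mfn1 0.802 (0.428 to 1.55) and 1.16 (0.518 to 2.85), and the mitophagy receptor gene Bnip3l 0.863 (0.382 to 2.08). Every one of these intervals holds 1, so a difference was not detectable at this depth.

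By the bound of the interval nearest to 1, the lowest genes were Slc40a1, Zfp467, Atf7ip, Cyp2c55 and Tef, followed by Zbtb26, Marc2, Add3, Car1 and Cavin1. Slc40a1, which encodes the iron exporter ferroportin, had 26 counts in 5 nuclei and 11 counts in 7 nuclei, with 61.5% and 45.5% of them in 1 nucleus each, a ratio of 0.192 (0.0857 to 0.403). With doublet calls removed the log2 ratio of Slc40a1 was 0.21, on the other side of 0. Atf7ip, which encodes a chromatin factor, had 56 and 46 counts, 0.373 (0.247 to 0.561), and the zinc finger gene Zfp467 16 and 7 counts, 0.199 (0.0691 to 0.511). The epithelial genes Car1 (47 and 46 counts, 0.445) and Cyp2c55 (30 and 21 counts, 0.318) were also low, while in other nuclei they had 305 and 352, and 234 and 254 CPM, and both turned direction where a Leiden cluster replaced the rule. Among the highest ratios, the enteroendocrine genes Chgb (3 and 74 counts) and Tph1 (0 and 32 counts) came mostly from 1 knockout nucleus of 10104 UMIs, a doublet call, which held 69 and 29 of these counts.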

How the data were processed

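Sorted colon nuclei of 2 libraries (1 wild type, 1 Pink1 knockout) were analysed. The deposited values are raw UMI counts of each gene in each barcode. Per the file headers they came from Cell Ranger 6.1.2. The genome was mm10 (GRCm38), as the submitters' processing notes list it. Neither an annotation release nor the treatment of introns, doublets or free RNA was given in the sources used here. Gene positions came from GENCODE M21, matched by ID for 32235 of 32285 genes (99.8%).

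Barcodes with at least 500 UMIs, 300 genes and at most 10% mitochondrial UMIs were kept, 8888 of 8924 and 12146 of 12230. Deposited counts of the selected nuclei were summed per library, and CPM taken over nuclear-encoded genes. A gene was measured with at least 20 counts over both libraries. The selected knockout nuclei held more counts in sum, so a gene could pass through that library alone. For every list, the count of higher members and the median are thus no support by themselves. Log2 ratios added 0.5 to each count. Doublets were the highest Scrublet scores (0.8% per 1000 nuclei). They stayed in, and were removed as an alternative. Nuclei without doublet calls were clustered by the Leiden method at resolution 1 (27 clusters), and 1 cluster held 68 of 88 and 155 of 195 members. To compare shares, nuclei were thinned to 500 UMIs. The membership rule, ratios and intervals were checked on simulated data.

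The members and gene lists were chosen with earlier results of these data known. Genes were named by a rule: per list the 2 most abundant measured genes and up to 4 highest and 4 lowest whose interval leaves out 1, the 10 highest and 10 lowest by the interval bound nearest to 1 over all measured genes (leaving out mitochondrial, Y-linked, immunoglobulin and clone-named genes and genes with a higher CPM in other nuclei), and the 20 highest over other nuclei. Other members named in the text to describe a list were chosen after their values were seen. Alternatives were stricter and looser nucleus and marker limits, doublet removal, Leiden clusters, thinning, other count minimums and scaling, free RNA subtraction and leaving out single nuclei. Python 3.11.15, scanpy 1.11.5 and scipy 1.17.1 were used.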

Additional observations from a re-analysis of the deposited data

Results flagged for a closer look

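For 6 named genes the counting interval of the knockout over wild-type ratio lay on opposite sides of 1 in blood endothelial nuclei and in another class. None of these differences was tested, and all rest on 1 library per genotype. Calcrl had a ratio of 0.614 in blood endothelial and 1.18 (1.04 to 1.35) in all other kept nuclei. Tjp1 had 1.84 here and 0.916 (0.860 to 0.975) in other nuclei. Timp3 had 1.84 here and 0.793 (0.675 to 0.933) in lymphatic endothelial nuclei, and Ltbp4 had 1.65 here and 0.764 (0.595 to 0.984) there. The epithelial gene Car1 had 0.445 here and 1.15 (1.11 to 1.20) in other nuclei. The epithelial gene Cyp2c55 had 0.318 here, 2.31 (1.25 to 4.60) in lymphatic endothelial nuclei and 1.09 (1.05 to 1.14) in other nuclei. Where a Leiden cluster replaced the rule, the log2 ratios here were 0.16 for Car1 and 0.43 for Cyp2c55, so that the opposite direction was lost for Car1 against other nuclei and for Cyp2c55 against both classes.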

How the results depend on the processing

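The ratio of the shares of blood endothelial nuclei lay between 1.47 and 1.71 over 19 alternatives, and the immediate early list had a median log2 ratio of 1.19 to 1.59 over its alternatives. The number of genes at least 1.5-fold higher was 755 of 3944 as reported, 501 of 2733 with at least 1000 UMIs, 502 of 2584 without doublet calls, 498 of 2523 in the Leiden cluster, 282 of 1367 after thinning, 1592 of 6688 at 10 counts and 189 of 1411 at 50 counts. The number lower was 203 after thinning, 1118 at 10 counts and 91 at 50 counts. These settings by construction change how many genes are measured, and the share higher still ran from 13.4% at 50 counts to 23.8% at 10 counts. Median-of-ratios scaling gave 925 higher and 372 lower of the same 3944, with the median of all genes at 0.10.

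Of the values of single genes, 1070 lay inside the counting interval of the reported ratio, 22 lay outside it and 12 reversed. Reversal was counted only for genes whose reported interval leaves out 1, so a change of direction in other genes is not among the 12. The 22 were of Atf7ip, Bhlhe40, Car1, Efnb2, Egr1, Eln, Fabp4, Klf2, Opa1, Pfkp, Scarb1, Slc40a1, Tmem88, Tph1 and Zfp467. Wide intervals let ratios vary: over the alternatives Nr4a1 ran from 10.3 to 71.3, Fos from 6.12 to 26.9, Nfkbia from 4.27 to 15.7, Tmem88 from 2.65 to 14.9, Plat from 2.48 to 10.6, Egr1 from 2.77 to 8.07 and Bhlhe40 from 1.55 to 5.21. The reversed log2 ratios were, for Car1, 0.16 in the Leiden cluster, for Cyp2c55, 0.43 in the Leiden cluster and 0.62 after thinning, for Efnb2, -0.10 in the Leiden cluster, and for Slc40a1, 0.21 without doublet calls and 1.37 in the Leiden cluster. Chgb had -1.47 with at least 1000 UMIs, -0.17 without doublet calls and -0.10 in the Leiden cluster. It had -0.66 without nuclei past the limits on markers of other classes, and -0.11 without its top nucleus. Without the largest knockout nucleus, an alternative chosen after seeing the data, it had -0.43. The cause was not tested for Car1, Cyp2c55, Efnb2 and Slc40a1. No paired analysis was possible because each genotype had 1 library. With 3 counts corresponding to 26.1 and 11.8 CPM, differences in genes under the count minimum were not detectable.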
